A study of Mus musculus with 89 samples.

Results

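The lungs described here came from OVA-challenged mice exposed to the dose of 10 of CuO NH3, a copper oxide nanomaterial with ammonium groups on its surface, and they gave 3 of the 89 samples of the series. Their labels alone set which samples belong to the group, although the group itself was picked with earlier results of these data known. They were compared with the 8 samples of OVA-challenged controls that received no nanomaterial. All animals were female BALB/c mice of 6 to 8 weeks, sensitised with OVA (ovalbumin, a model allergen) in Alum on days 1 and 10, so the controls carried the same sensitisation. After 10 days of recovery the mice were treated by oropharyngeal aspiration on 4 consecutive days, and lungs that had been lavaged were collected 24 h after the last aspiration. A sample pooled 2 RNA samples, was labelled with Cy3 or Cy5 and was hybridised with another sample to a 2-colour Agilent mouse array. The methods give 8 mice per group and independent pools, but 8 such control pools would need more than 8 mice. How the controls were drawn is not given in the sources used here. OVA controls 1 to 4 lay on slides 1 to 3, and controls 5 to 8 and the exposed samples on slides 4 to 6. The dose stands in μg per day in the sample descriptions, in μg per mouse in the study's methods and in mg per mouse in the treatment protocol, and it is written here without a unit. Because the lung was measured as a whole, fewer cells of a type and less RNA per cell cannot be told apart in any of these values.

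In allergic airway inflammation, allergen-specific T cells release type 2 cytokines that draw eosinophils into the airways and turn airway cells into mucus-producing goblet cells. Inhaled metal oxide particles are taken up by alveolar macrophages, and the ensuing inflammation brings in neutrophils and blood monocytes through chemokines. Copper ions and oxidative stress are known to induce metallothioneins and heme oxygenase, which bind metal and break down heme.

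Levels are given as log2 median spot intensity after quantile normalisation, with the effects of dye, slide and array position removed. A difference of 1 is therefore 2-fold, and levels of different genes cannot be compared because each gene has its own probes. Fold changes are log2 differences from 1 limma model of all 26 groups with dye and array as batch terms, given with their standard error (SE), so they need not equal the difference between the levels. A gene was called where its log2 fold change exceeded 0.58 in size (1.5-fold) and its p after Benjamini-Hochberg adjustment over genes was below 0.05. In the 11 samples the foreground of the median spot was 1.38 to 3.31 times its local background, no spot was saturated, and 50.4% to 68.5% of spots were well above background. The lung markers Sftpc (17.4 to 17.7 in the exposed samples) and Scgb1a1 (17.1 to 17.4) were at high levels and did not pass the test, and neither did Pecam1 of the endothelium, at −0.15 ± 0.27 (SE), although other endothelial markers were lower.

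Against the OVA-challenged controls, 574 of 22911 genes were called after CuO NH3 10 (2.51%), of which 317 were higher (1.38%) and 257 lower (1.12%). These shares stand for comparison with the counts of called list members below. The lists were written with earlier results of these data known, and some genes stand in several lists. The counts therefore describe the lists and do not test them. The chemokines Ccl2 and Ccl7, the macrophage gene Gpnmb and the stefin gene Cstdc5 led the rises with array terms, and the scavenger receptor Marco, the cytochromes Cyp2a4 and Cyp2a5 and the globin gene Hbb-bt led the falls. The median log2 fold change of all genes was −0.01 and the median SE 0.15. In 1269 genes (5.54%) the 3 exposed samples lay above all 8 controls, and in 967 (4.22%) below them. Both conditions, a call and groups that did not overlap, were met by 178 genes higher and 125 lower.

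The batch terms set how many genes were called. Exposed replicate 3 and OVA control replicate 7 shared the only array that held a sample of each group, and without either of them 34 genes were called, 11 of them among the 574. Of the 64 called genes named here 4 were then called. Without exposed replicate 1 the count was 886. OVA control replicate 7 was the control farthest from the exposed direction for 65.7% of the called genes, against 31.1% of all genes. With slide and array position in place of the array 282 genes were called, and the median absolute log2 fold change of the 574 genes was 0.48 in place of 0.80. With array, with slide and position, and with the array as a random block alike, 161 genes were called, 116 higher and 45 lower. A gene among these 161 is said to hold under all batch terms, which means these 3 sets only. All 3 keep the shared array, and the replicate number as a block is not among them. Of the 64 called genes that are named from this comparison and its gene lists, 40 were called with slide terms too, as the plot of both fits shows. All kept their sign there, which the choice of the largest rises and falls partly fixed, since it used slide-corrected levels.

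**Figure D1:**
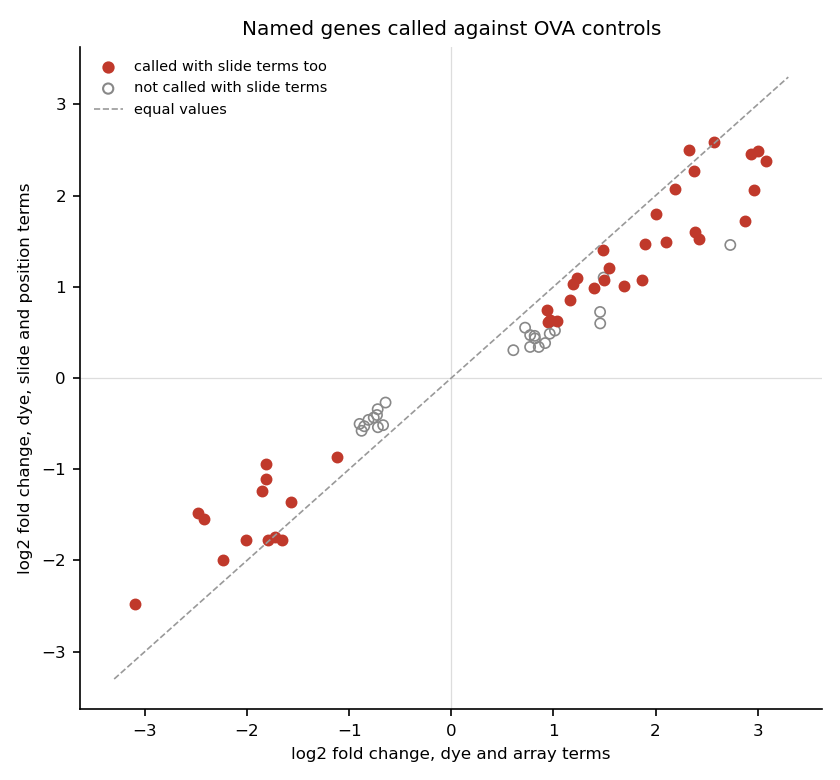
Log2 fold change of the 64 named genes called after CuO NH3 10 against OVA controls, with dye and array terms on the x axis and with dye, slide and array position terms on the y axis; filled points were called in both fits. All points lie in the quadrants of equal sign, most nearer to 0 on the y axis, and 40 of 64 were called with slide terms too.

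Ligands of CCR2, the receptor that draws monocytes from the blood, rose. Ccl2 was at 13.77, 14.05 and 14.06 in the exposed samples and at 10.81, 11.43 and 12.67 as lowest, median and highest of the controls. All exposed samples lay above all controls, and the rise of 3.08 ± 0.52 (SE, limma adjusted p = 0.00228) held under all batch terms, at 2.38 with slide terms. Ccl7, which binds the same receptor, stood at 12.04, 12.58 and 12.52 against 9.30 to 11.45 in the controls (median 10.34). The groups were again apart, with a rise of 2.96 ± 0.52 (adjusted p = 0.00324). Ccl12, at 11.12 to 11.96, overlapped the controls' range of 9.52 to 11.21 and rose by 1.86 ± 0.39. Ccl9 rose by 1.02 ± 0.24 and was not called with slide terms, where it was 0.52. Cx3cl1, the membrane-bound ligand of Cx3cr1, fell by 0.93. Of the 13 genes of the list of monocyte chemokines and their receptors, 4 were higher and 1 lower, with a median log2 fold change of 0.95. The receptors Ccr2 and Cx3cr1 were not called, at 0.19 and 0.01.

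**Figure D2:**
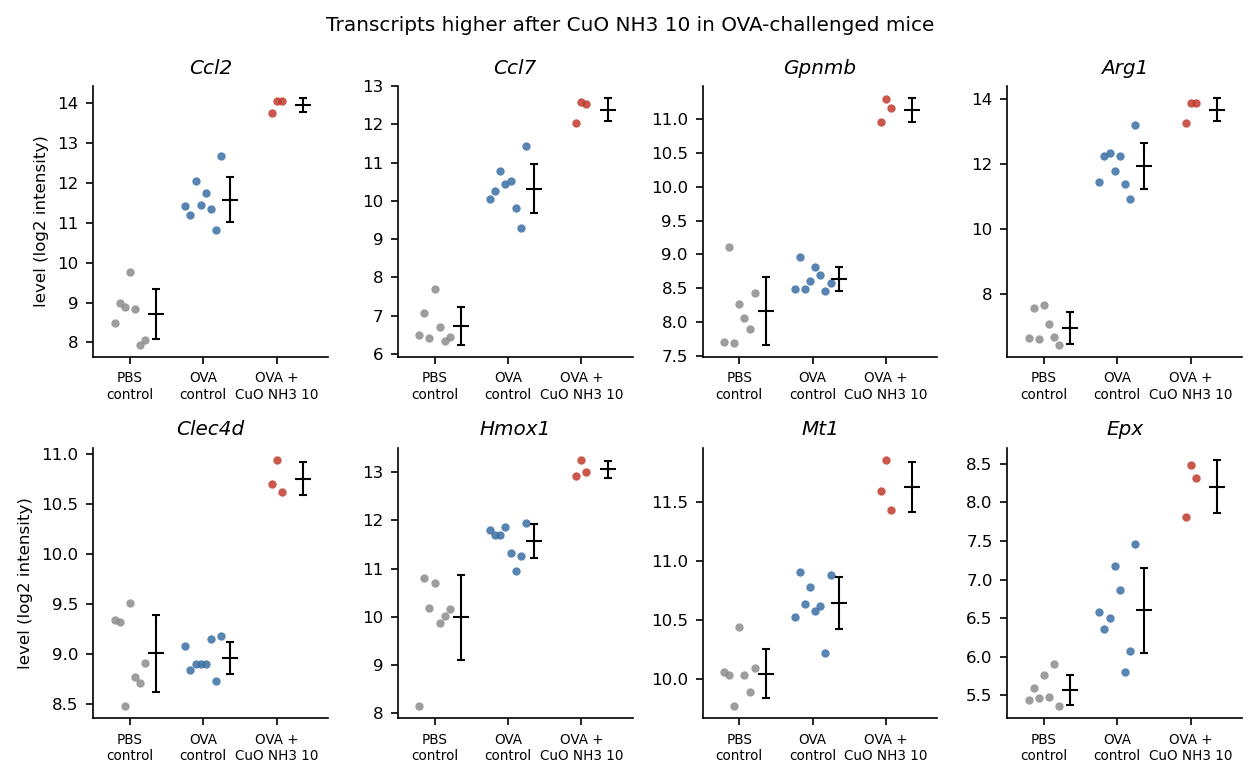
Level (log2 intensity, dye, slide and position removed) of 8 called genes in 7 PBS-challenged controls, 8 OVA-challenged controls and 3 OVA-challenged samples given CuO NH3 10; points are samples and bars mean ± SD. In each panel the 3 exposed samples lie above all 8 OVA controls, with Ccl2 between 13.77 and 14.06 against at most 12.67.

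Of 18 markers of monocytes and recruited macrophages 8 rose and 0 fell, with a median of 0.81, where 1.38% of all genes were called higher. Among the 10 not called were Ly6c2 (−0.09), Itgam (0.04) and Clec4n (0.27), and 6 of the 8 held under all batch terms. Gpnmb, a glycoprotein of lipid-laden and phagocytic macrophages, was at 10.94, 11.29 and 11.15 against 8.47 to 8.96 in the controls. No control came near the exposed samples, and the rise was 3.00 ± 0.47 (limma adjusted p = 0.00134), or 2.49 with slide terms. Arg1, the arginase of alternatively activated macrophages, stood at 13.27, 13.87 and 13.86, and the controls reached from 10.94 to 13.20 with a median of 12.02. The highest control lay just under the lowest exposed sample, and the rise was 2.87 ± 0.48 with array and 1.72 with slide terms. Spp1 (osteopontin) rose by 2.43 ± 0.27, Trem2 by 1.29, Msr1 by 1.34 and Cd68 by 1.05. Ms4a7 rose by 1.46 but was 0.72 and not called with slide terms, and within slide 4 it was −0.46. The list's summed linear intensity was 160683 to 188206 in the exposed samples and 109252 to 143739 in the controls. Such a sum is set mainly by the brightest genes of a list, called or not.

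Of 19 neutrophil markers 5 rose and 0 fell, with a median of 0.93. In 13 of the 19 the exposed samples lay above all controls, where 5.54% of all genes did. Clec4d, a C-type lectin receptor of neutrophils and monocytes, was at 10.70, 10.94 and 10.62 against 8.72 to 9.18. The groups were far apart, and the rise of 2.00 ± 0.24 (limma adjusted p = 8.83e-05) was 1.80 with slide terms. Clec4e, the related receptor Mincle, rose by 1.49 ± 0.39 and Il1r2, the decoy receptor of IL-1, by 1.24 ± 0.34. The collagenase Mmp8 of neutrophil granules stood at 8.87, 9.80 and 9.33 against 7.50 to 8.30, a rise of 1.90 ± 0.32. The stefin genes Cstdc5 (2.93), Stfa1 (2.38) and Stfa2l1 (2.19) rose too, but they are near-identical copies whose probes may not tell them apart. S100a8 at 1.59, S100a9 at 1.26 and Csf3r at −0.28 were not called. All 5 called markers held under all batch terms. The summed intensity of the list was 114228 to 123707 in the exposed samples and 67510.5 to 81955.4 in the controls. It is set mainly by Csf3r, S100a9, Lcn2 and S100a8, none of them called.

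Of 14 neutrophil-attracting chemokines, growth factors and receptors 2 were called, with a list median of 0.30. Cxcl5, made by alveolar type 2 cells, was at 10.83, 11.04 and 10.84 against 7.70, 9.75 and 10.58 as lowest, median and highest control. The exposed samples stood close together just above a widely spread control group, and the rise of 2.73 ± 0.53 was 1.46 and not called with slide terms (adjusted p = 0.0718). Cxcl1 rose by 1.49 ± 0.42 (adjusted p = 0.0463) and was likewise not called with slide terms (adjusted p = 0.0632). Csf2 (−0.06) was not called. Csf3 (0.02) and Il17a (0.00) were not well above background in any of the 11 samples, so their changes were not measurable on these arrays.

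Of 21 acute phase genes 3 were called higher, where 1.38% of all genes were, with a median of 0.39 over the list. In 10 of 21 the exposed samples lay above all controls, where 5.54% of all genes did. Orm1, an orosomucoid, was at 9.82, 9.95 and 9.63 against 7.00 to 7.58 in the controls (median 7.18). The gap between the groups exceeded 2 log2 units, and the rise was 2.57 ± 0.54 (limma adjusted p = 0.0113) with array and 2.59 with slide terms. Orm2 rose by 2.33 ± 0.52, although the pair are close copies. Cd14, the co-receptor for bacterial lipopolysaccharide, rose by 1.19 ± 0.24. The serum amyloid genes, of which Saa1 and Saa2 are close copies, stood at 1.77 (Saa3), 1.62 (Saa1) and 0.99 (Saa2) and were not called. Among 18 genes of IL-1, TNF and NF-kB feedback, only Il1r2 was called, Tnf being at 0.67 and Il1b at 0.53.

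Both inducible metallothioneins rose. Mt1 was at 11.60, 11.86 and 11.44 against 10.22, 10.63 and 10.91 as lowest, median and highest control, so no sample overlapped. Its rise of 1.40 ± 0.15 (limma adjusted p = 4.65e-05) was 0.99 with slide terms. Mt2, at 13.83, 14.30 and 14.08, stood above the controls' 12.46 to 13.54 and rose by 1.69 ± 0.25 (adjusted p = 0.000985), or 1.01 with slide terms. Their promoters are printed because metallothionein genes are known to respond to metal through copies of the metal response element. From the RefSeq annotation of GRCm38.p6, the windows run from 250 bases before to 50 after the start, chr8:94178839-94179138 for Mt1 and chr8:94172368-94172667 for Mt2, both on the + strand. Capitals mark matches on either strand to TGCACNC or TGCGCNC, the core of that element, with no overlap between matches.
Mt1: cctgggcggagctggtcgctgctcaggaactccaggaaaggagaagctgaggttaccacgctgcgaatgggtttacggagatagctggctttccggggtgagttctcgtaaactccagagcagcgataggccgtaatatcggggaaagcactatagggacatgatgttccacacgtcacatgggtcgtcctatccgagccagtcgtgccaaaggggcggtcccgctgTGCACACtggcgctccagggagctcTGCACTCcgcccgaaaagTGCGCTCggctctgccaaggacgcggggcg
Mt2: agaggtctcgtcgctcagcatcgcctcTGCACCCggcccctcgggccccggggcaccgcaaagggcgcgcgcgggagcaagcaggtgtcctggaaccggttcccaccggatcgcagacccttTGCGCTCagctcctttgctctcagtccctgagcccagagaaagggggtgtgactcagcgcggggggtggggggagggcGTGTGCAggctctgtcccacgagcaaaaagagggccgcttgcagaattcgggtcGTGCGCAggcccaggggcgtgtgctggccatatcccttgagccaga

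The Mt1 window held 3 matches, all on the + strand, and the Mt2 window 4, of which 2 lay on each strand. Of 32851 promoter windows of this length, 25.7% held at least 1 match and 1.97% held 3 or more. Mt3 and Mt4, which lie in the same cluster on chromosome 8, had 1 match each and were not called, at 0.19 and −0.23. A match describes these letters and not a bound site. Of the 18 genes for metallothioneins and copper handling these 2 were called, with a median of 0.18. The copper importer Slc31a1 (−0.08), the exporters Atp7a (−0.08) and Atp7b (−0.24), the chaperones Atox1 (0.09) and Ccs (−0.03) and the copper-zinc enzyme Sod1 (−0.55) were not called.

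Hmox1, the heme oxygenase, was at 12.91, 13.25 and 13.00 in the exposed samples and at 10.95, 11.70 and 11.94 as lowest, median and highest control. The exposed samples lay close together and apart from every control, and the rise was 2.11 ± 0.26 (limma adjusted p = 8.83e-05) with array and 1.49 with slide terms. The iron-storing ferritin chains Fth1 and Ftl1 rose by 0.95 ± 0.19 and 0.94 ± 0.19. These were the 3 called genes of the 20 of the Nrf2 antioxidant programme, whose median was 0.26, and all 3 held under all batch terms. Other antioxidant genes were not called, among them Slc7a11 (0.43), Gclc (0.45), Srxn1 (0.29), Txnrd1 (0.25) and Nqo1 (−0.57). Hspa1a, an inducible heat shock gene, was at 11.65, 13.39 and 12.27 against 10.17 to 11.91, so replicate 1 lay within the control range, and 2.15 ± 0.67 was not called (adjusted p = 0.0744). None of 16 heat shock genes was called, and neither was any of 18 p53 targets, 34 proteasome subunits, 21 cholesterol genes or 8 targets of the aryl hydrocarbon receptor.

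The eosinophil granule genes Epx and Prg2 rose against the OVA-challenged controls. Epx, the eosinophil peroxidase, was at 7.81, 8.48 and 8.32 in the exposed samples and at 5.80, 6.54 and 7.47 as lowest, median and highest control, with 6 of 8 controls well above background. The exposed samples lay above all controls, and the rise was 2.39 ± 0.26 (limma adjusted p = 4.65e-05), or 1.60 with slide terms. Prg2, the major basic protein, stood at 8.79, 9.79 and 9.74 against 7.71 to 8.88. Replicate 1 lay within the control range, and the rise of 1.55 ± 0.26 was 1.20 with slide terms. These 2 of 13 genes were called in the list of eotaxins and eosinophil genes, whose median was 0.44. The eotaxins were not called, with Ccl11 at 0.74 ± 0.27 (adjusted p = 0.132) and Ccl24 at 0.43. Prg3, a close relative of Prg2, was at 0.24 and not well above background in any exposed sample. The ribonuclease Ear1 (−1.04) and its close copy Ear2, which also mark alveolar macrophages, and Ear10 (−0.35) were not called. The list's summed intensity was lower in the exposed samples, 27627 to 34981.4 against 38012.2 to 59741.1. This sum is set mainly by Ear2, Ear10, Ccl24 and Ear1, at mean exposed levels of 13.39, 12.94, 12.53 and 11.48, and hardly by Epx at 8.21.

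Type 2 cytokine genes were not called. None of 20 cytokines, alarmins and receptors passed, with a median of 0.27. Il13, which drives goblet cell change, was at 5.90, 6.10 and 6.29 against 5.66 to 6.02, but it was not well above background in any of the 11 samples. Its 0.56 had an adjusted p of 0.0261 and stayed under the 1.5-fold limit. Il4 (0.63), Il5 (0.53) and Il33 (0.50) were not called. Muc5ac, the mucin of goblet cells, was at 9.19, 10.02 and 10.40 against 10.12, 10.69 and 11.14 as lowest, median and highest control. These levels lie at or under the low end of the controls, while the array terms gave 0.35 ± 0.62 (adjusted p = 0.817) and slide terms −0.79, so the sign depended on the batch terms. Of 12 goblet cell genes Creb3l1 alone was called, at 0.61, and it was not called with slide terms. Retnlb, a resistin-like protein of the airway epithelium, rose by 1.46 ± 0.39 with array and was 0.60 and not called with slide terms. With Arg1 it made 2 of 9 called among resistin-like proteins, chitinases and arginase, while Chil3 (0.68) and Chil4 (0.60) were not called.

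Some genes of matrix turnover rose. Of 16 matrix metalloproteinases and TIMPs 3 were higher with a list median of 0.70, namely Mmp8, Mmp13 at 1.17 ± 0.19 and Mmp19 at 0.72 ± 0.18. Mmp12 (0.82) and Timp1 (0.93) were not called. Of 18 collagens and wound matrix genes 7 were higher with a median of 0.59, where 1.38% of all genes were called higher. Spp1 was at 14.42, 14.75 and 14.82 against 12.40, 13.23 and 13.87 in the controls, which it exceeded in every sample. Thrombospondin Thbs1 rose by 1.03 ± 0.23 and tenascin Tnc by 0.96 ± 0.22. Col1a1 rose by 0.96 ± 0.27 (adjusted p = 0.0495), overlapped the controls, and was not called with slide terms at 0.49. Under all batch terms 2 metalloproteinases and 2 wound matrix genes held.

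Mitotic genes were called higher in 7 of 30, where 1.38% of all genes were, with a median of 0.58. Among them were Melk (0.92 ± 0.22), Cdc20 and Cdk1 (0.82 each) and Top2a (0.77 ± 0.17). The exposed levels of these named genes overlapped the controls, as with Top2a at 9.79, 9.95 and 9.85 against 9.11 to 10.07. Mcm6 (0.74) and Kif11 (0.67), also called, lay above all controls in every exposed sample. None of the 30 held under all batch terms.

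**Figure D3:**
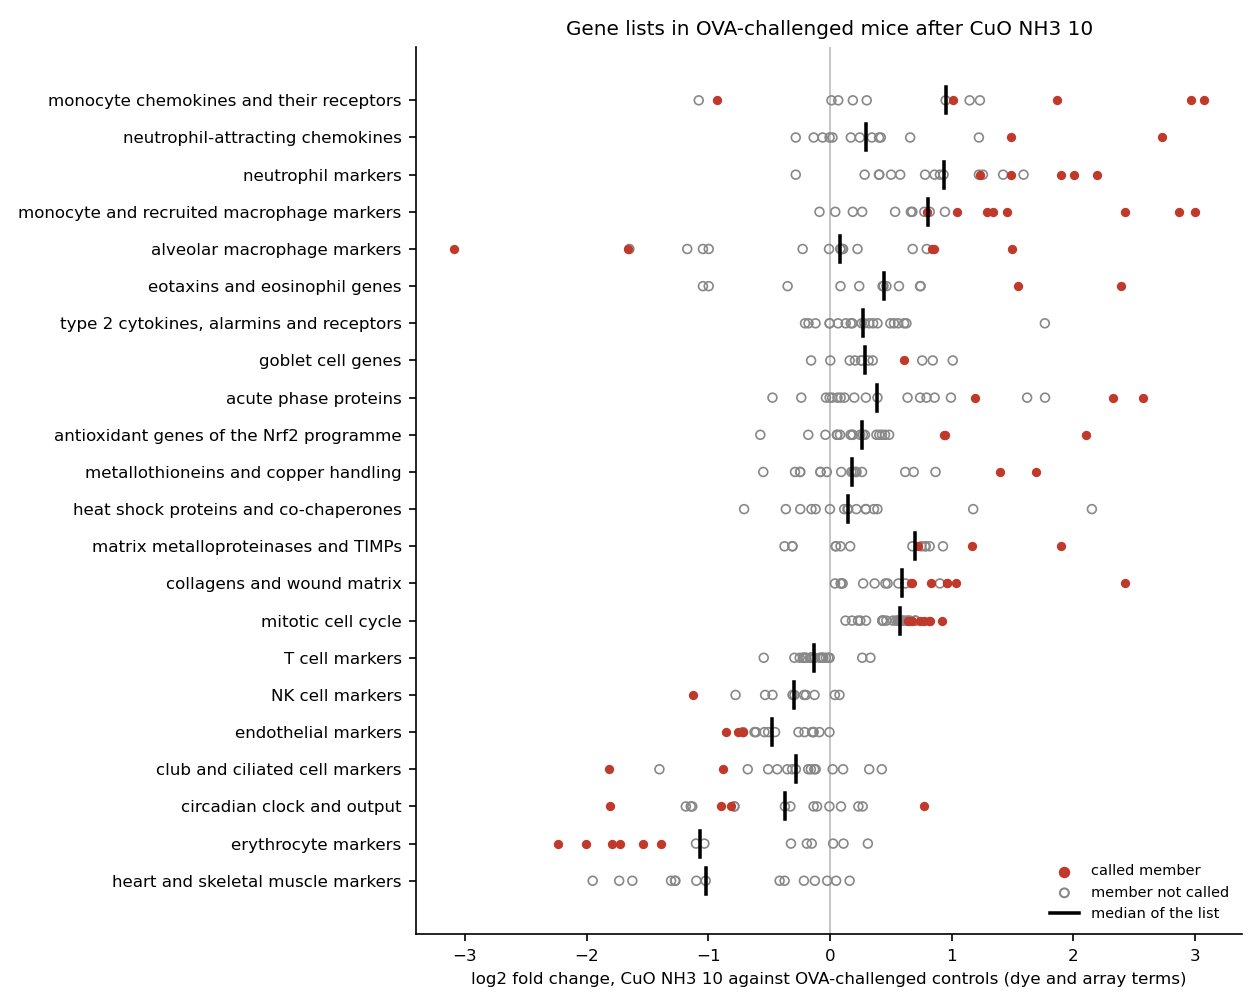
Log2 fold change of CuO NH3 10 against OVA controls (dye and array terms) for the members of 22 gene lists; filled points are called, open points not called, and bars are list medians. The medians run from −1.07 in erythrocyte markers to 0.95 in monocyte chemokines, and called members lie on both sides of 0 in alveolar macrophage markers, monocyte chemokines and clock genes.

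Markers of resident alveolar macrophages moved in both directions, 3 of 18 called higher and 2 lower. In 6 of the 18 the exposed samples lay under all controls and in 2 above them, where 4.22% and 5.54% of all genes did. Marco, a scavenger receptor that binds inhaled particles, was at 8.02, 6.41 and 6.79 in the exposed samples and at 8.88, 9.42 and 10.32 as lowest, median and highest control. Replicate 1 lay closest to the controls, but none overlapped, and Marco fell by 3.09 ± 0.59 (limma adjusted p = 0.00521), or by 2.48 with slide terms. Krt79 was at 9.77, 9.73 and 9.93 against 11.30 to 11.91 and fell by 1.66 ± 0.35, or by 1.78 with slide terms. Fabp1 (−1.65) and Cidec (−1.17) were not called. Fabp5, a fatty acid carrier, rose by 1.50 ± 0.24, and Mrc1 (0.86) and Atp6v0d2 (0.84) were higher with array terms.

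Transcripts of red blood cells fell, 6 of 14 markers, with a median of −1.07. Hbb-bt, a beta globin, was at 13.97, 13.24 and 14.24 against 15.44, 15.75 and 16.30 in the controls. All exposed samples lay more than 1 log2 unit under the lowest control, and the log2 fold change was −2.24 ± 0.40 (limma adjusted p = 0.00388), or −2.00 with slide terms. Hbb-b1 (−2.01), Hbb-b2 (−1.72) and Hba-a1 (−1.39) fell too, but globin copies share most of their sequence. Alas2, the red cell enzyme of heme synthesis, is no globin and stood at 9.41, 8.64 and 9.92 against 10.59 to 11.43, a log2 fold change of −1.79 ± 0.38. All 6 held under all batch terms. The list's summed intensity was 133070 to 207000 in the exposed samples and 324961 to 513906 in the controls, and the part of residual blood was not tested.

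**Figure D4:**
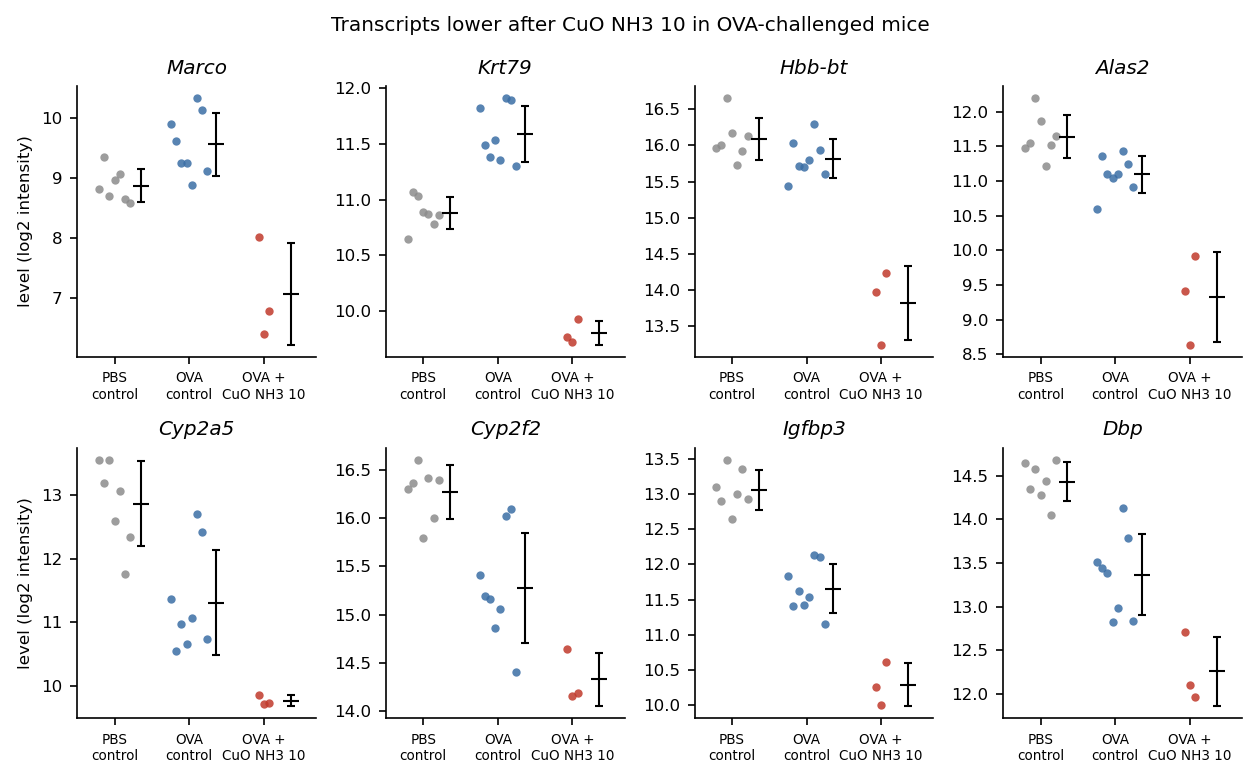
Level (log2 intensity, dye, slide and position removed) of 8 called genes in 7 PBS-challenged controls, 8 OVA-challenged controls and 3 OVA-challenged samples given CuO NH3 10; points are samples and bars mean ± SD. The exposed samples lie under all 8 OVA controls except for Cyp2f2, where they span 14.15 to 14.65 and the lowest control is at 14.40.

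Some cytochromes of the airway epithelium fell. Cyp2a5 was at 9.87, 9.72 and 9.73 against 10.54, 11.02 and 12.71 as lowest, median and highest control. The exposed samples were close together under a control group with a long upper end, and the log2 fold change was −2.42 ± 0.51 (limma adjusted p = 0.0107) with array and −1.54 with slide terms. Its close copy Cyp2a4 fell by 2.47. Cyp2f2, a cytochrome of club cells, stood at 14.65, 14.15 and 14.19 against 14.40 to 16.09, a log2 fold change of −1.81 ± 0.34, or −0.95 with slide terms. With Tppp3 (−0.88) it made 2 of 17 called among club and ciliated markers (median −0.28), while Scgb3a2 (−1.40) and Foxj1 (0.02) were not called.

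Igfbp3 and genes of the endothelium were lower too. Igfbp3, which binds insulin-like growth factors, was at 10.26, 10.01 and 10.61 against 11.15 to 12.13 and fell by 1.57 ± 0.23, with −1.36 under slide terms. The groups did not overlap, as also for Esm1, a proteoglycan of endothelial cells, which fell by 1.86 ± 0.31. Of 16 endothelial markers 3 were lower, Egfl7 (−0.85), Tek (−0.76) and Ramp2 (−0.72), with a median of −0.48, but none held under all batch terms. The same applied to Hopx (−0.73) and Cav1 (−0.67), 2 of 12 alveolar type 1 markers with a median of −0.52. Etv5 (−0.72) and Abca3 (−0.64) were 2 of 13 alveolar type 2 markers, neither called with slide terms, with a median of −0.25.

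Of 17 genes of the circadian clock and its output 3 fell and 1 rose. Dbp, a clock-driven transcription factor, was at 12.71, 12.10 and 11.96 against 12.83, 13.42 and 14.14 in the controls. Replicate 1 lay just under the lowest control, and the log2 fold change was −1.81 ± 0.34 (limma adjusted p = 0.00511), or −1.11 with slide terms. Tef (−0.90) and Cry2 (−0.81) fell and Nfil3, a repressor that binds the same sites as Dbp, rose by 0.77, with a list median of −0.37. Per1 (−1.14), Nr1d1 (−1.13) and Hlf (−1.18) were not called. Dbp alone of these held under all batch terms. Clock genes cycle over the day, and the hour at which each lung was taken is not given in the sources used here.

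Among lymphocytes, 0 of 21 T cell and 0 of 15 B and plasma cell markers were called, with medians of −0.13 and 0.28. Nkg7, a granule protein of NK and cytotoxic T cells, was at 9.07, 9.63 and 9.38 against 9.91 to 10.50 and fell by 1.12 ± 0.29, as 1 of 11 NK cell markers. In 6 of these 11 the exposed samples lay under all controls (4.22% of all genes did). None of 12 lymphoid chemokines, 14 genes of the IL-6 family, 12 dendritic cell, 11 mast cell and basophil, 9 adipose or 7 mesothelial markers was called. Their medians lay between −0.16 and 0.28.

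In PBS-challenged mice, which were sensitised alike but aspirated without OVA, the same exposure was compared with 7 PBS-challenged controls to ask whether the allergic state altered the response. Between the OVA-challenged and PBS-challenged control groups 1195 genes were called (5.22%). The difference between the effects of CuO NH3 10 under the 2 challenges was called for 30 genes (0.131%), 9 higher and 21 lower in the OVA-challenged mice, and for 200 with slide terms and 149 with the array as a random block. The effect was nearer 0 in OVA-challenged mice for 21 of the 30 genes, 21 were called in PBS-challenged mice, where 771 genes were called in all (3.37%), and 10 in OVA-challenged mice. Without PBS-challenged exposed replicate 4 the count was 0, and leaving out other single samples gave 5 to 60. Epx was at 5.64 ± 0.10 (SD, n = 4) in exposed and 5.57 ± 0.20 (n = 7) in control PBS-challenged lungs, against 8.21 ± 0.35 (n = 3) and 6.60 ± 0.55 (n = 8) in OVA-challenged lungs. It was well above background in 0 of the 11 PBS-challenged samples, so its effect there, fitted at 0.17, was not measurable on these arrays. The fitted effects differed by 2.22 ± 0.32 (SE, limma adjusted p = 0.00459). Prg2 differed likewise by 1.63 ± 0.31 (adjusted p = 0.0379), and it was well above background in 3 of 7 control and 1 of 4 exposed PBS-challenged samples. The cathepsin Ctsl differed by 1.69, with a rise of 2.00 in OVA-challenged mice.

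Members of the mitotic list were among the genes whose effect was nearer 0 in OVA-challenged mice, namely Mki67, Birc5, Rrm2, Top2a, Ccnb2, Aurka and Cenpf, as were the histone genes H1f5, H2ac11, H2ac22 and H2ac23. Mki67, a marker of dividing cells, was at 10.93 ± 0.14 in exposed and 9.07 ± 0.33 in control PBS-challenged lungs, and at 11.61 ± 0.08 and 11.39 ± 0.24 in OVA-challenged ones. The OVA-challenged controls thus already exceeded the exposed PBS-challenged lungs on average, and the effects of 0.61 and 2.07 differed by −1.46 ± 0.21 (limma adjusted p = 0.00459). Birc5 (−1.52), the histone H1f5 (−1.64) and Top2a (−1.20) followed, and the list of mitotic genes had 29 of 30 called in PBS-challenged mice with a median of 1.42. Slc26a4 (pendrin, an anion exchanger of the airway epithelium) had effects of 1.01 and 3.55, a difference of −2.54 ± 0.52. Acute phase genes were called in 12 of 21 under PBS challenge and in 3 of 21 under OVA challenge, a difference in counts that was not itself tested, where 2.57% and 1.38% of all genes were called higher. The differences for Ccl2 (−0.88, 95% interval −2.16 to 0.40) and Mt1 (0.25, −0.13 to 0.63) included 0. Those of Gpnmb (1.87, 0.71 to 3.04) and Marco (−2.08, −3.54 to −0.62) did not, but failed the adjustment over all genes (adjusted p = 0.320 and 0.434).

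**Figure D5:**
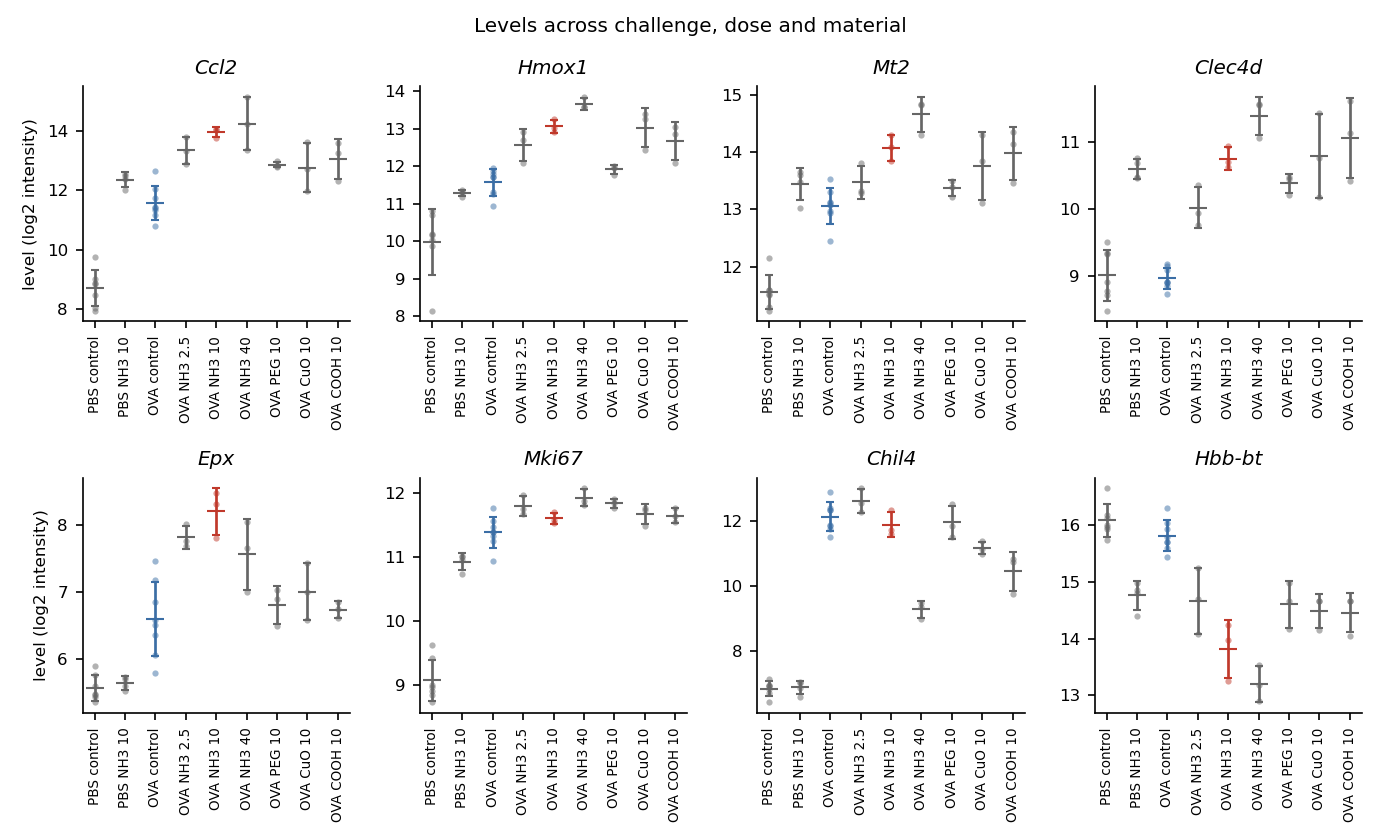
Level (log2 intensity, dye, slide and position removed) of 8 genes in 9 groups named by challenge, material and dose; points are samples, horizontal bars means and vertical bars ± SD (n = 3 to 8). Epx was not well above background in PBS-challenged mice, and Chil4 in OVA-challenged mice drops from 11.87 ± 0.39 at dose 10 to 9.27 ± 0.25 at dose 40.

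The doses 2.5 and 40 of CuO NH3 were set against dose 10 in OVA-challenged mice, 3 samples each. Against the same 8 controls, 226 genes were called at dose 2.5 (0.986%) and 911 at dose 40 (3.98%), so these counts and the 574 of dose 10 share their controls. Directly, 0 genes separated dose 10 from dose 2.5 by limma, with 1360 at an unadjusted p under 0.05 and 25 called without dose 10 replicate 3. With the array as a random block the count was 9 and with slide terms 10. For 29 genes, those with the largest changes against controls together with chemokine, metal and allergy genes, the 95% interval of the difference was written out. Between doses these intervals come from the fit with array terms. Mt2 at 1.32 (0.66 to 1.97), Mt1 at 0.76 (0.36 to 1.16) and Hmox1 at 0.69 (0.02 to 1.35) were among the 6 whose interval lay above 0 at dose 10, none of them passing the adjustment. Ccl2 was at 13.34 ± 0.45 (SD) at dose 2.5, 13.96 ± 0.17 at dose 10 and 14.25 ± 0.90 at dose 40. Its fitted difference of 1.24 (−0.10 to 2.59) from dose 2.5 and of −0.16 (−1.53 to 1.20) at dose 40 from dose 10 both included 0. The fitted sign at dose 40 was opposite to that of the mean levels.

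From dose 10 to dose 40, 5 genes were called (0.0218%). Chil4, a chitinase-like protein of the allergic airway, fell by 3.10 ± 0.53 (limma adjusted p = 0.043), with no overlap between 11.59 to 12.31 at dose 10 and 8.99 to 9.48 at dose 40. Adra2a, an adrenergic receptor, was lower, at −2.34, as was Bpifb5, at −1.22. The matrix protein fibulin Fbln2 was higher by 1.55 ± 0.28 and Ptprn by 0.85. The goblet list had 8 of 12 genes lower at dose 40 and 0 of 12 at dose 10, each against the shared controls. With array terms Muc5ac differed by −3.42 (−5.05 to −1.78) and Epx by −1.57 (−2.26 to −0.87) between these doses, with limma adjusted p of 0.117 and 0.0938. The Epx levels overlapped, at 7.81, 8.48 and 8.32 at dose 10 and at 8.05, 7.00 and 7.65 at dose 40. T cell markers were lower in 15 of 21 at dose 40 and in 0 of 21 at dose 10. Of all genes 1.92% were called lower at dose 40 and 1.12% at dose 10, and the differences in the counts of both lists were not themselves tested. The count of genes between dose 40 and dose 10 depended on the batch terms, with 404 called with slide terms, and on single samples, with 3 called without dose 40 replicate 1, 11 without dose 10 replicate 2, 27 without dose 10 replicate 3, and 28 and 29 without dose 40 replicates 2 and 3.

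The other materials at dose 10 were compared in 3 pairs with slide and position as batch terms, each adjusted over all genes. CuO is the unmodified core, and COOH and PEG (polyethylene glycol) name the surface groups of the other forms. The study dosed equal mass of whole material. By its measurements the coated forms held less copper than the core, in the falling order CuO NH3, CuO COOH and CuO PEG. The part of copper content in the differences below was not tested. With array terms, against the shared OVA controls, 574 genes were called for CuO NH3, 0 for CuO PEG, 61 for CuO (0.266%) and 146 for CuO COOH (0.637%). The 574 were 282 with slide terms and 34 without either sample of the shared array. Directly against CuO PEG 10, 10 genes were called (0.0436%), 3 higher and 7 lower after CuO NH3. Without CuO PEG replicates 1, 2 and 3 in turn the count was 16, 0 and 2, and without CuO NH3 replicate 3 it was 21. Hspa1a, which has a near-identical copy in Hspa1b, was higher by 2.45 ± 0.51 (limma adjusted p = 0.0274), the vasopressin receptor Avpr1a by 1.05 and Pgap6 by 0.74. The T cell chemokine Ccl5 was lower, at −1.35 ± 0.28, as were the class II antigen-presenting genes H2-Eb1 (−0.77) and H2-Ab1 (−0.70). For 15 of the 29 genes the interval excluded 0, among them Hmox1 at 1.15 (0.39 to 1.91), Epx at 1.40 (0.78 to 2.01), Ccl2 at 1.09 (0.14 to 2.03) and Marco at −1.47 (−2.28 to −0.66). None of these passed the adjustment, Epx having an adjusted p of 0.0544.

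No gene was called between CuO NH3 10 and CuO 10, nor between CuO NH3 10 and CuO COOH 10, with 1552 and 1038 genes at an unadjusted p under 0.05 by limma. These pairs lay on different slides, so slide and material are linked only through the controls that both sets of slides carried. With arrays as a random block, without a slide term, 824 and 600 genes were called, and leaving out single samples gave at most 6 and 1. Hmox1 was at 13.06 ± 0.18 (SD) after CuO NH3 and 13.03 ± 0.52 after CuO, a difference of 0.03 with an interval of −0.85 to 0.90. Ccl2 was higher than after CuO by 1.19 (0.10 to 2.28) and Arg1 by 1.72 (0.51 to 2.94), and Marco was lower, at −1.67 (−2.60 to −0.74). Against CuO COOH, Arg1 was higher by 1.95 (0.73 to 3.17), Epx by 1.47 (0.76 to 2.18) and Ccl11 by 0.87 (0.17 to 1.56), and Mt2 differed by 0.09 (−0.62 to 0.81). None of these passed the adjustment over all genes.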

How the data were processed

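The authors deposited the scanner output of each array with median foreground and local background intensity per spot and channel, unnormalised (Feature Extraction 12.0.2.2 in the file headers), and a table of normalised log2 values per probe and sample. Quality marks in the deposited scanner output, of unit other, flag control spots, outliers and spots well above background. The methods name log2 transformation, quantile normalisation, ComBat for labelling and array effects, and limma. The steps behind the deposited log2 table itself are not given in the sources used here.

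From the intensities, log2 median foreground without background subtraction was quantile normalised over 89 samples on 46 arrays of 6 slides. The 3671 control spots and outlier spots were left out, which gave 56605 probes. Of these, 32994 matched a gene of the RefSeq annotation of GRCm38.p6 and were averaged to 22911 genes, and 23611 were not used (R 4.3.3, limma 3.58.1, version 1.17.8 of data.table, jsonlite 2.0.0). limma's moderated test was fitted over all 26 groups with dye and array terms against controls, between challenges and between doses, and with dye, slide and position terms between materials. The fits were run on values simulated from the same models and batch terms, which checks the computation but not the choice of batch terms.

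Named genes were the 12 largest rises and 12 largest falls among called genes whose exposed samples lay on one side of all controls, without predicted genes, at most 5 each way for other comparisons, up to 4 called members of each of 38 gene lists or 2 where none was called, and Ccl2, Ccl7, Ccl11, Mt1, Mt2, Hmox1, Muc5ac and Il13. Some genes chosen by this rule are not reported here. Other list members were chosen after their values were seen. The group and the lists were chosen with earlier results of these data known. Groups and replicates come from the labels, and p-values measure the spread between pools. Alternatives were normexp with an offset of 50, loess, dim probes left out, the deposited table, other batch terms, the replicate number as a block, other sample sets and each sample left out. Sequences were read in Python 3.11.15 and figures drawn with matplotlib 3.10.9. The number of arrays and their signal over background limit the precision.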

Additional observations from a re-analysis of the deposited data

Results flagged for a closer look

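In 3 of 105 genes and groups examined, 1 control sample stood far from the other 7, and each time it was OVA control replicate 7, which shared its array with exposed replicate 3. Clec10a, a lectin of dendritic cells and macrophages, was at 7.863 there and next lowest at 8.16, a gap of 0.574 of the group's range. Etv5, a transcription factor of alveolar type 2 cells, was at 13.76 against 13.36, a gap of 0.681, and the lipid transporter Abca3 of the same cells at 14.68 against 14.35, a gap of 0.539. Chance alone flags about 5% of such groups, or 5.2 here. Without this control and with slide terms 144 genes were called against OVA controls.

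The effect of CuO NH3 10 differed between challenges for 3 genes that are also named from the comparison with OVA controls. The eosinophil gene Epx differed by 2.22, with 2.39 in OVA-challenged and 0.17 in PBS-challenged mice (limma adjusted p = 0.00459), where it was well above background in 0 of 11 samples. Prg2 differed by 1.63 (1.55 and −0.0851, adjusted p = 0.0379). Top2a, an enzyme of dividing cells, differed by −1.2 (0.772 and 1.97, adjusted p = 0.0252).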

How the results depend on the processing

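Against OVA controls, 416 genes were called with the array as a random block, 566 from the deposited table, 511 with normexp, 541 without dim probes and 458 with controls of the same slides, all within 1.5 times of 574. The count was 282 with slide and position terms, 248 with loess, 34 with only the exposed and control samples, 158 with slide terms and the shared array left out, and 144 with slide terms and no control replicate 7. The last 2 alternatives were chosen after seeing the data. Random block, slide terms and replicate block gave 149, 200 and 139 for the difference between challenges, 9, 10 and 13 against dose 2.5, and 361, 404 and 433 for dose 40 against 10. The random block and the replicate block gave 824 and 1018 against CuO and 600 and 1022 against CuO COOH. The cause of these shifts was not tested.

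Leaving out 1 sample gave 34 to 886 genes against OVA controls, 0 to 60 between challenges, 0 to 25 against dose 2.5, 3 to 29 for dose 40 against 10, 0 to 21 against CuO PEG, 0 to 6 against CuO and 0 to 1 against CuO COOH. Of 704 values of the 64 called named genes, 543 stayed called, 161 did not and 0 turned sign. Without exposed replicate 3, 60 of 64 were lost, and 60 without control replicate 7. These 2 omissions give the same fit, since a sample left alone on its array is taken up by its array term. The same losses are therefore counted under both. With the other alternatives 413 of 573 stayed called, 158 did not and 2 turned.

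With the replicate number as a block 1699 genes were called against OVA controls. The numbers did not pair the samples, since same-numbered deviations correlated at 0.27, 0.07 and −0.28, and crossed ones at −0.25 to 0.15. The block turned the called Col1a1 to −0.18 and Abca3 to 0.17, and of genes not called Cxcl13 to −0.043, Ccl19 to 0.038, Ccng1 to −0.00899, Psmd1 to −0.0702, Kit to 0.00567, Cd200r3 to −0.0111, Clec10a to −0.19, Ccl11 to −1.42 and Muc5ac to −0.57. Other turns were of genes not called. Muc5ac was −0.49 and Ccl11 −0.33 and Clec10a −0.0388 with the random block, Muc5ac −0.79 and Clec10a −0.0797 with slide terms, and Muc5ac −0.84 and Wt1 −0.00923 with only these groups. Without exposed replicate 3 or control replicate 7, Aldh3a1 was 0.19 and Cfd 1.44, against −0.80 and −1.42 as the lowest with another sample left out. With slide terms and the shared array left out, or no control replicate 7, Muc5ac was −1.17 and −0.89, Clec10a −0.26 and −0.21, Gadd45g −0.0251 and −0.0266, Cyp1a2 −0.0407 and −0.0804, Wt1 −0.0421 and −0.0101, with Kit at 0.0313 in the first and Xcr1 at −0.0127 in the second.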

Other observations

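Interferon-stimulated genes varied widely among the exposed samples. Oasl1 was at 9.62, 11.70 and 10.33 against 8.92, 9.48 and 9.92 as lowest, median and highest control, and Rsad2 at 7.42, 9.50 and 8.26 against 7.11 to 7.90. Replicate 2 was highest in both, and replicate 1 lay within the control range. Their log2 fold changes of 1.41 ± 0.63 and 1.22 ± 0.61 (SE) were not called (limma adjusted p = 0.228 and 0.287), and neither was any of the 18 genes of the list, whose median was 0.56. The summed intensity of the list was 21083.8 to 64022.9 in the exposed samples and 24270.2 to 37434.7 in the controls.

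Heart and skeletal muscle markers, genes of tissue that can be cut out with the lung, had a median of −1.02 with 0 of 15 called. Myl7, an atrial myosin light chain, was at −1.95 ± 0.95. Their summed intensity was 6038.12 to 6826.52 in the exposed samples and 7955.55 to 20349.9 in the controls, which varied more. How much such tissue a sample held was not tested.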
